A study of Mus musculus with 69 samples.

Results

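DNA replication genes are described here in mouse prostate organoids, clusters in culture of prostate epithelium. The 42 genes were taken by symbol from a list of known replication genes, with no threshold on a measured value, though the list was drawn up when earlier results of these data were known. They encode the origin and helicase loading factors, the replicative helicase, the clamp and its loader, the polymerases, lagging strand enzymes, enzymes of nucleotide supply and factors that restore chromatin behind the fork. All 42 had a line in each of 3 tables of bulk polyA RNA sequencing counts, out of 16893, 18799 and 18966 named genes, and all 42 passed the filter on low counts in each table.

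The 69 libraries form 23 groups of n = 3. One table holds organoids labelled TKO, PtP and WT, each kept for 8 days with COMBO, with YAPi_NOTCHi or with DMSO, the solvent control. A second table holds 3 NEPC lines (NEPC-1, NEPC-2, NEPC-3), PRAD organoids after 42 days of COMBO, and PRAD organoids after 8 days of COMBO, YAPi_NOTCHi, ARi_YAPi, ARi_NOTCHi, NOTCHi, YAPi, ARi or DMSO. The third holds TKOM organoids kept in suspension to day 30 and TKOM organoids in Matrigel, a basement membrane gel, with no day given. The sample titles give the agents only by these codes, with no dose. Library codes of the PRAD organoids hold other short forms of the agents, and those of the NEPC lines begin with TKONE. The labels do not say what COMBO contains, which genes differ in TKO, PtP, TKOM, PRAD or NEPC organoids, how the NEPC lines were made, or whether the libraries of a group come from separate cultures. If they do not, the p-values rest on technical spread alone. The series title names the extracellular matrix, YAP/TEAD and lineage plasticity in prostate cancer.

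A cell copies its genome once in each cell cycle. In G1 the origin recognition complex, of which Orc1 and Orc6 are subunits, works with Cdc6 and Cdt1 to load the ring of Mcm2 to Mcm7 onto origins, and Mcm10, Cdc45 and the GINS proteins then turn the ring into a moving helicase. Polymerase alpha with its primase lays down primers, polymerases epsilon and delta extend them on the Pcna clamp that replication factor C loads, and the replication protein A subunits coat the exposed single strands. Most of these genes are transcribed together as cells pass from G1 into S phase, under E2F factors that the retinoblastoma protein family restrains. Their RNA is high in dividing epithelium and low in resting epithelium. In bulk RNA, fewer cells in cycle and less RNA per cell cannot be told apart.

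Promoters are shown for 4 members whose levels are followed below, because these windows hold the letters of the E2F site. RefSeq promoter sequence (GRCm38.p6, the assembly that mm10 names) was found for 34 of the 42 genes. In the 250 bases before the start, 10 of the 34 (29.4%) held TTTCCCGC, TTTGGCGC, TTTCGCGC or TTTGCCGC on either strand, against 583 of 27025 genes (2.16%). Among tested genes of the WT, PtP and TKO table that have a promoter the share was 442 of 12128 (3.64%). The letters CCAAT, searched likewise, were in 22 of the 34 (64.7%) and in 37.5% of all promoters, and TTTGAA, the core of the cell cycle homology region, in 4 of the 34 (11.8%) and in 18.3% of all. The letters were counted separately, and matches may overlap at their ends. A match says only that the letters are there. Each window below is the 160 bases just before the RefSeq start, read 5′ to 3′ on the strand of the gene, with E2F-type letters in capitals. The Mcm5 window holds 2 matches that overlap, the Mcm6 window 3, and the others 1 each. No annotated exon lies in these windows, and that of Cdc6 lies inside the longer gene that GENCODE M21 gives.
Mcm5, a helicase subunit (chr8:75109349-75109508, plus strand): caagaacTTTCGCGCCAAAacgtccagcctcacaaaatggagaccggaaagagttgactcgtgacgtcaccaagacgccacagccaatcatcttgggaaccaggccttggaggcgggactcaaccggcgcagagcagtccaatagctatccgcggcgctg
Mcm6, a helicase subunit (chr1:128359706-128359865, minus strand): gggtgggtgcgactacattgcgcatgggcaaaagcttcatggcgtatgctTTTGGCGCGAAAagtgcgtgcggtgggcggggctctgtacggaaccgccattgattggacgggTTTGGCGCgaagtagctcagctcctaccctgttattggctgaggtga
Cdc6, a helicase loader (chr11:98907991-98908150, plus strand): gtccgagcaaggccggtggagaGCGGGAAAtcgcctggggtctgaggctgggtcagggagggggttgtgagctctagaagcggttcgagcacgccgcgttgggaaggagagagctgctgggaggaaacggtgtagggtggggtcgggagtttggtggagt
Pola1, the catalytic subunit of polymerase alpha (chrX:93632156-93632315, minus strand): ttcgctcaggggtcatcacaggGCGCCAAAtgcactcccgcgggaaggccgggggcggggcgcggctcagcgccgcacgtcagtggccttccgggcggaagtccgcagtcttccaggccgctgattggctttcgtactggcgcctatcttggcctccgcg

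Library totals were 31459485 to 40457128 counts in the TKOM table, 22798858 to 77787396 in the PRAD and NEPC table and 18627674 to 92271275 in the WT, PtP and TKO table. Levels are CPM, which are counts scaled to a common library size, after TMM scaling within a table, and levels are not set against each other across tables. Lowest of all was a member at 4 counts in a library of the WT, PtP and TKO table. In PRAD organoids with NOTCHi, library 2 stood apart, with a chi-square per gene of 27.2 and 25.6 against the other two libraries and 2.63 between those. All 7 epithelial markers were detected in every group except for Trp63 at 0 in TKOM suspension, Krt5 at 0 in NEPC-2 and Krt14 at 0 in NEPC-3. Of 6 fibroblast markers, Dcn and Pdgfra could be read in the PRAD and NEPC table and in the WT, PtP and TKO table, and Cd68 was the immune marker read in all tables.

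Reads can be shared for some members. In the annotation (GENCODE M21, GRCm38) the exons of 12 members overlap those of another measured gene. Among them are Mcm7 with Ap4m1 and Cops6, Fen1 with Tmem258, Cdc45 with Ufd1, Lig1 with Zswim9, Orc6 with Vps35 and Tk1 with Afmid. Those named so far lie on the opposite strand, while Pole2 overlaps Gm49384 on the same strand. Whether the counting used strand is not given in the sources used here. Processed copies of Pcna and Tyms are annotated elsewhere, and Pcna had a count that was not whole, as when reads are divided among genes, in all 69 libraries. Many other members had such counts in most libraries, among them Uhrf1 (98.6% of libraries), Gins2 (97.1%), Tyms (94.2%), Mcm6 (85.5%) and Lig1 (85.5%). For Cdc6 the share was 73.9%, for Rrm2 71.0% and for Mcm5 68.1%. Values of these members are less certain than those of Pola1, Prim2 or Exo1, whose counts were whole in nearly all libraries.

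After 8 days of YAPi_NOTCHi, PtP and WT organoids held far less replication gene RNA than their DMSO controls, and TKO organoids held most of theirs. The summed level of the 42 genes was 2643, 2645 and 2613 CPM in the TKO libraries with YAPi_NOTCHi, against 3055, 3062 and 3089 CPM with DMSO. In PtP organoids it was 710.5, 703 and 709.7 CPM with YAPi_NOTCHi, against 2271, 2271 and 2246 CPM with DMSO. In WT organoids it was 718, 704 and 701 CPM with YAPi_NOTCHi, against 2483, 2526 and 2496 CPM with DMSO. Treated and DMSO libraries did not overlap in any genotype, and the gap was far smaller in TKO organoids than in the other two.

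**Figure D1:**
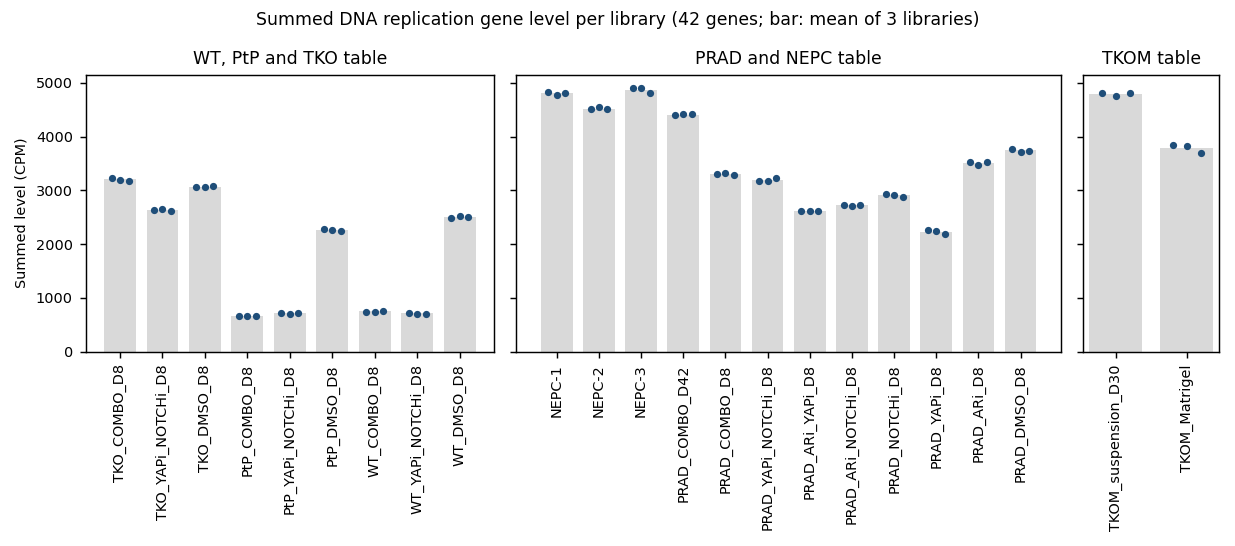
Summed level of the 42 DNA replication genes in CPM for each library (points) with the mean of 3 libraries (bars), in 3 panels that were scaled separately. PtP and WT organoids with COMBO or YAPi_NOTCHi have means of 660 to 747 CPM, against 2263 CPM (PtP) and 2502 CPM (WT) with DMSO, while the TKO means lie between 2634 and 3203 CPM.

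Of the 42 genes, 41 fell with YAPi_NOTCHi in WT organoids and 0 rose, where 40.2% of all 18430 genes tested fell and 45.5% rose. The median log2 fold change of the members was -1.85, against 0.11 over all genes tested. In PtP organoids 41 fell and 0 rose (40.6% and 44.9% of all genes tested), with a median of -1.68 against 0.087. Falls of at least 2-fold were made by 34 members in PtP and by 34 in WT organoids. The share of all genes tested with a fall of that size was not counted.

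Helicase loading genes had some of the deepest falls. Values in brackets after a gene name are its log2 fold change ± SE from edgeR. Cdc6, an ATPase that recruits the helicase (chr11:98907801-98923940), was at 0.517, 0.503 and 0.279 CPM in WT organoids with YAPi_NOTCHi, against 16.2, 13.5 and 14.4 CPM in WT organoids with DMSO (log2 fold change -5.01 ± 0.18 SE, edgeR adjusted p = 3.40e-27). Orc1, the ATPase subunit of the origin recognition complex (chr4:108579423-108614833), was at 0.344, 0.503 and 0.511 CPM with YAPi_NOTCHi, against 12.4, 11.8 and 12.1 CPM with DMSO (log2 fold change -4.70 ± 0.17 SE, edgeR adjusted p = 7.23e-27). For both genes all treated libraries lay far below all DMSO libraries. Cdt1, the partner of Cdc6 in loading, fell by less, to 5.21 CPM ± 0.165 with YAPi_NOTCHi against 39.8 CPM ± 0.770 with DMSO (SD, n = 3 each), and Orc6, the smallest subunit, had a log2 fold change of -1.07 ± 0.048 (SE).

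Every helicase subunit fell in WT organoids, with a median log2 fold change of -2.89 over Mcm2 to Mcm7. Mcm5 (chr8:75109569-75128439) was at 5.64, 4.73 and 4.32 CPM in WT organoids with YAPi_NOTCHi, against 124, 127 and 126 CPM with DMSO (log2 fold change -4.69 ± 0.060 SE, edgeR adjusted p = 4.67e-43). Its treated libraries were about 25.8-fold lower by the fit, with no overlap. Mcm6, whose product sits in the same ring, was at 30.1, 31.4 and 32.3 CPM with YAPi_NOTCHi, against 119, 120.4 and 117 CPM with DMSO (log2 fold change -1.93 ± 0.034 SE, edgeR adjusted p = 4.18e-38), so the fitted falls within the ring span a wide range. Mcm7 had the smallest fall of the 6 (-1.13 ± 0.029), and its exons overlap those of 2 other genes.

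Among activators of the helicase, Mcm10 (-4.88 ± 0.12) and Cdc45 (-3.72 ± 0.15) fell in WT organoids. Gins2, a subunit of the GINS complex that travels with the helicase (chr8:120578633-120589304), stood apart. It was at 38.5, 37.3 and 40.2 CPM in WT organoids with YAPi_NOTCHi, against 41.7, 40.5 and 40.3 CPM with DMSO (log2 fold change -0.086 ± 0.046 SE, edgeR adjusted p = 0.0761). In PtP organoids it was at 36.7, 41.2 and 38.5 CPM with YAPi_NOTCHi, against 42.3, 41.5 and 40.6 CPM with DMSO (log2 fold change -0.082 ± 0.045 SE, edgeR adjusted p = 0.0853). Gins2 was the member not called in these comparisons, and its treated and DMSO libraries lay close together. It was called lower without library 3 of WT organoids with YAPi_NOTCHi (-0.11, edgeR adjusted p = 0.0349) and without library 2 of PtP organoids with YAPi_NOTCHi (-0.14, edgeR adjusted p = 0.0111). Its exons overlap those of Gse1 on the opposite strand.

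Clamp and polymerase genes fell as well. Pcna, the sliding clamp (chr2:132249162-132253314), was at 64.9, 62.7 and 62.6 CPM in WT organoids with YAPi_NOTCHi, against 214, 213 and 208 CPM with DMSO (log2 fold change -1.74 ± 0.033 SE, edgeR adjusted p = 9.61e-37). Prim1, the catalytic primase subunit (chr10:128015168-128030037), was at 11.3, 12.03 and 11.4 CPM with YAPi_NOTCHi, against 20.2, 23.4 and 23.3 CPM with DMSO (log2 fold change -0.93 ± 0.064 SE, edgeR adjusted p = 4.76e-17). Pole, the catalytic subunit of polymerase epsilon, fell furthest of the polymerase genes (-3.57 ± 0.13), and Pold1, that of polymerase delta, fell least (-0.59 ± 0.065). By role, the median log2 fold change was -1.14 for the clamp and its loader and -1.27 for the polymerases, against -3.81 for the loading genes, a description of 5, 7 and 4 genes with no test between roles.

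The deepest fall in WT organoids was that of Uhrf1, which recruits the maintenance DNA methyltransferase to copied DNA (chr17:56303321-56323486). It was at 3.14, 2.70 and 2.83 CPM with YAPi_NOTCHi, against 111, 116 and 114 CPM with DMSO (log2 fold change -5.32 ± 0.062 SE, edgeR adjusted p = 1.21e-44). Dtl, an adaptor that has Cdt1 destroyed in S phase (-4.93 ± 0.085), and Exo1, an exonuclease of replication and repair (-4.80 ± 0.13), were near it in depth. Rrm2, the subunit of ribonucleotide reductase that varies through the cell cycle (chr12:24708241-24714146), was at 10.5, 9.42 and 9.47 CPM with YAPi_NOTCHi, against 219, 227 and 226 CPM with DMSO (log2 fold change -4.52 ± 0.039 SE, edgeR adjusted p = 4.21e-49). Its partner Rrm1 fell by less, to 53.8 CPM ± 1.27 against 173 CPM ± 3.59 (SD, n = 3 each). Rpa1 (-0.41 ± 0.031) and Rfc3, a clamp loader subunit (-0.58 ± 0.052), were near the shallow end of the members.

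PtP organoids had falls in the genes named above as well, except for Gins2, which was not called. Uhrf1 was at 6.30, 6.19 and 7.71 CPM in PtP organoids with YAPi_NOTCHi, against 93.2, 95.4 and 99.9 CPM with DMSO (log2 fold change -3.85 ± 0.055 SE, edgeR adjusted p = 2.47e-41). Cdc6 was at 1.35, 1.38 and 1.003 CPM with YAPi_NOTCHi, against 11.3, 9.37 and 9.28 CPM with DMSO (log2 fold change -2.98 ± 0.16 SE, edgeR adjusted p = 4.78e-21). Mcm5 was at 11.3, 9.08 and 9.17 CPM with YAPi_NOTCHi, against 109, 109 and 107 CPM with DMSO (log2 fold change -3.48 ± 0.055 SE, edgeR adjusted p = 8.82e-40). No treated library of these 3 genes overlapped a DMSO library. Rrm2 (-3.70 ± 0.043), Mcm3 (-3.48 ± 0.056) and Exo1 (-3.33 ± 0.11) were also among the deepest falls, and Pold1 fell too (-1.46 ± 0.067).

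Direct tests of the difference between the PtP and WT effects called 28 members in the direction of a shallower fall in PtP and 5 in that of a deeper fall (27% and 30.4% of all genes tested). The difference was 2.40 ± 0.13 (SE, edgeR adjusted p = 2.70e-19) for Dtl, 2.03 ± 0.31 (SE, edgeR adjusted p = 2.99e-07) for Cdc6 and 1.71 ± 0.29 (SE, edgeR adjusted p = 1.73e-06) for Orc1 on the log2 scale. Pold1 went the other way, with a difference of -0.87 ± 0.095 (SE, edgeR adjusted p = 1.24e-10), and Rpa1 too (-0.74 ± 0.046).

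TKO organoids with YAPi_NOTCHi showed a mixed pattern. Of the 42 genes, 14 rose (33.3%) and 20 fell (47.6%), where 45.7% of all genes rose and 40.6% fell, so the share that fell lies near that of all genes and the share that rose below it. The median was -0.13, against 0.096 over all genes. Prim1 rose most. It was at 117, 119 and 115 CPM in TKO organoids with YAPi_NOTCHi, against 28.3, 27.7 and 29.7 CPM with DMSO (log2 fold change 2.04 ± 0.041 SE, edgeR adjusted p = 7.36e-36). Pcna was at 355, 355 and 339 CPM with YAPi_NOTCHi, against 255, 249 and 249 CPM with DMSO (log2 fold change 0.48 ± 0.028 SE, edgeR adjusted p = 2.23e-19). Gins2 was at 81.1, 79.9 and 84.4 CPM with YAPi_NOTCHi, against 54.1, 50.9 and 51.8 CPM with DMSO (log2 fold change 0.65 ± 0.038 SE, edgeR adjusted p = 2.82e-19). In each of these genes all treated libraries were above all DMSO libraries.

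The clamp and loader genes rose in TKO organoids (5 of 5 called, among them Rfc3 at 0.68 ± 0.042 and Rfc4 at 0.73 ± 0.064). The helicase genes fell (6 of 6 called). Of all genes tested, 45.7% rose and 40.6% fell. Exons of Rfc2, Rfc4, Rfc5 and Mcm7 overlap those of another measured gene, and Pcna has processed copies, so their values are less certain. Mcm5 was at 76.3, 76.8 and 76.5 CPM in TKO organoids with YAPi_NOTCHi, against 139.7, 145 and 147 CPM with DMSO (log2 fold change -0.91 ± 0.037 SE, edgeR adjusted p = 6.70e-25). Uhrf1 was at 44.1, 46.2 and 46.9 CPM with YAPi_NOTCHi, against 117, 119 and 122 CPM with DMSO (log2 fold change -1.38 ± 0.037 SE, edgeR adjusted p = 2.29e-31). Rrm2 was at 42.2, 43.0 and 41.5 CPM with YAPi_NOTCHi, against 133, 129 and 132 CPM with DMSO (log2 fold change -1.63 ± 0.032 SE, edgeR adjusted p = 2.85e-36). These treated libraries were all below the DMSO libraries, though above the treated libraries of PtP and WT organoids. Orc1 (-1.36 ± 0.11), Mcm4 (-1.19 ± 0.038) and Lig1, the ligase that joins lagging strand fragments (-1.17 ± 0.035), also fell, and Cdc6 fell by little (-0.36 ± 0.094).

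**Figure D2:**
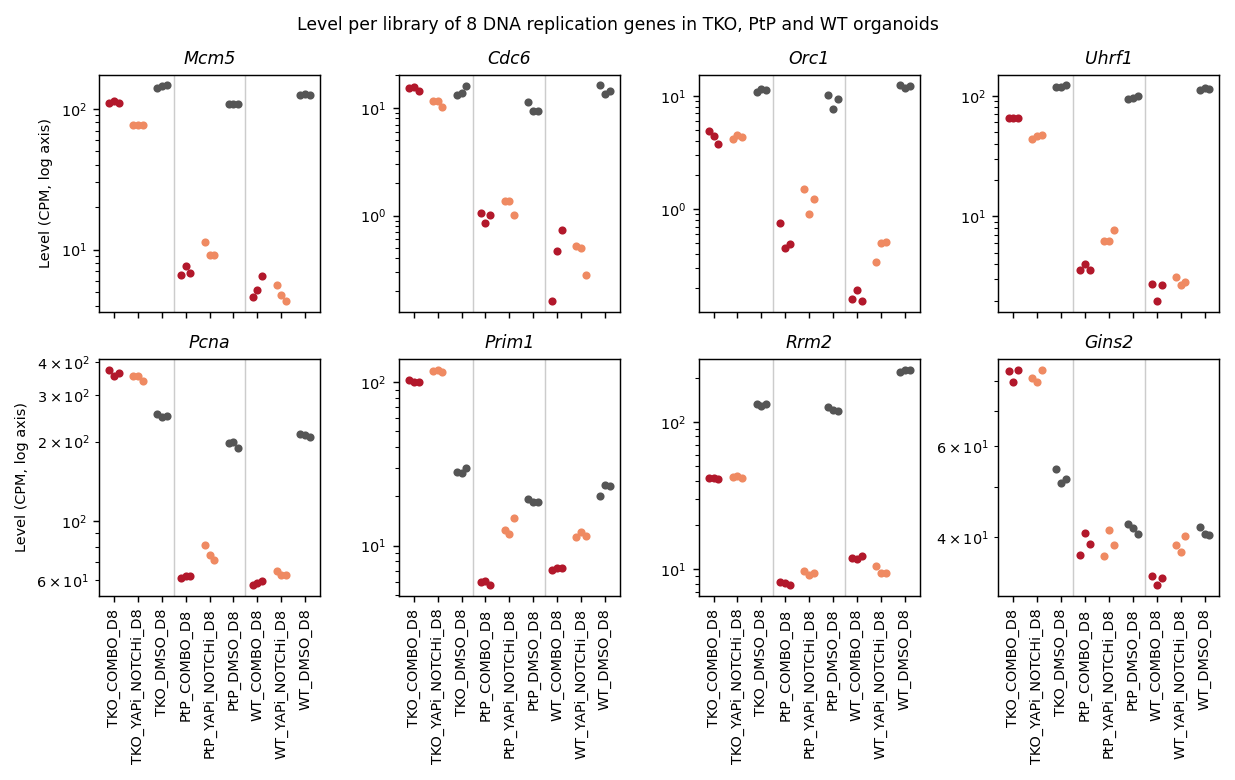
Level in CPM (log axes) of 8 members in each library of TKO, PtP and WT organoids with COMBO (red), YAPi_NOTCHi (orange) and DMSO (grey). Mcm5, Cdc6, Orc1, Uhrf1, Pcna and Rrm2 are low in every treated PtP and WT library, Gins2 stays within a narrow range there, and Prim1 is highest in the treated TKO libraries.

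The difference between the TKO and PtP effects of YAPi_NOTCHi was called upward for all 42 members (0 downward, with 24.2% and 28.4% of all genes tested), with a median of 1.62 on the log2 scale. It was 2.93 ± 0.13 (SE, edgeR adjusted p = 4.99e-22) for Exo1, 2.80 ± 0.069 (SE, edgeR adjusted p = 1.98e-31) for Mcm3 and 2.60 ± 0.078 (SE, edgeR adjusted p = 1.67e-28) for Prim1. The smallest was that of Mcm7, at 0.59 ± 0.039. For the 10 members with E2F-type letters in the promoter the median log2 fold change with YAPi_NOTCHi was -0.46 in TKO organoids, and for the 24 without them it was -0.13. In PtP organoids the medians were -2.47 with the letters and -1.65 without, and in WT organoids -3.31 with and -1.77 without. The ranges overlapped, in WT organoids from -5.32 to -0.58 with the letters and from -4.88 to -0.41 without. In PRAD organoids over DMSO the medians with and without the letters were close for YAPi (-0.88 and -0.82) and YAPi_NOTCHi (-0.25 and -0.21). For NOTCHi (-0.53 and -0.56) and ARi (-0.13 and -0.30) the fall was shallower with the letters. These medians are descriptions with no test.

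COMBO was followed by falls in PtP and WT organoids as well. In TKO organoids 25 of the 42 rose and 14 fell (46.2% and 41% of all genes tested), with a median of 0.22 against 0.079 over all genes. In PtP organoids 42 fell and 0 rose (40.2% and 44.8%), with a median of -1.74 against 0.071, and in WT organoids 42 fell and 0 rose (40.8% and 44.9%), with a median of -1.98 against 0.089. Orc1 was at 0.161, 0.195 and 0.155 CPM in WT organoids with COMBO, against 12.4, 11.8 and 12.1 CPM with DMSO (log2 fold change -6.11 ± 0.21 SE, edgeR adjusted p = 1.84e-27). Exo1 was at 0.484, 0.312 and 0.348 CPM with COMBO, against 21.98, 18.6 and 17.3 CPM with DMSO (log2 fold change -5.65 ± 0.15 SE, edgeR adjusted p = 6.99e-32). All treated libraries of both genes lay below 1 CPM. Lig1 was the exception among the deep falls of the lagging strand genes, at 71.9, 69.2 and 68.1 CPM in WT organoids with COMBO, against 74.3, 79.5 and 72.2 CPM with DMSO (log2 fold change -0.11 ± 0.040 SE, edgeR adjusted p = 0.00779), and its libraries nearly met. That call was lost without library 2 of WT organoids with COMBO (edgeR adjusted p = 0.0679), without library 2 with DMSO (edgeR adjusted p = 0.243) and with only the groups compared in the fit (-0.073, edgeR adjusted p = 0.0951), so the count of 42 rests on it.

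In TKO organoids with COMBO, Prim1 was at 104, 100.3 and 101 CPM, against 28.3, 27.7 and 29.7 CPM with DMSO (log2 fold change 1.84 ± 0.041 SE, edgeR adjusted p = 1.57e-34). Pola1, the catalytic subunit that works with Prim1 (chrX:93304767-93632155), was at 67.3, 63.9 and 66.7 CPM with COMBO, against 31.2, 30.3 and 30.2 CPM with DMSO (log2 fold change 1.12 ± 0.045 SE, edgeR adjusted p = 5.18e-25). Both genes were higher in all COMBO libraries. Rrm2 (-1.66 ± 0.030), Orc1 (-1.30 ± 0.099), Uhrf1 (-0.87 ± 0.034) and Mcm4 (-0.79 ± 0.035) fell, and Cdc6 was not called (0.093 ± 0.084). The difference between the TKO and PtP effects of COMBO was called upward for 42 members and downward for 0 (25.7% and 31.2% of all genes), with a median of 2.10, and reached 4.78 ± 0.14 (SE, edgeR adjusted p = 7.78e-29) for Exo1. Between PtP and WT, 21 differences were upward and 7 downward (29.4% and 30.4%). Among them were 2.22 ± 0.41 (SE, edgeR adjusted p = 8.35e-06) for Orc1 and -1.70 ± 0.056 (SE, edgeR adjusted p = 3.03e-27) for Lig1. The 2 treatments share the DMSO libraries of each genotype.

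**Figure D3:**
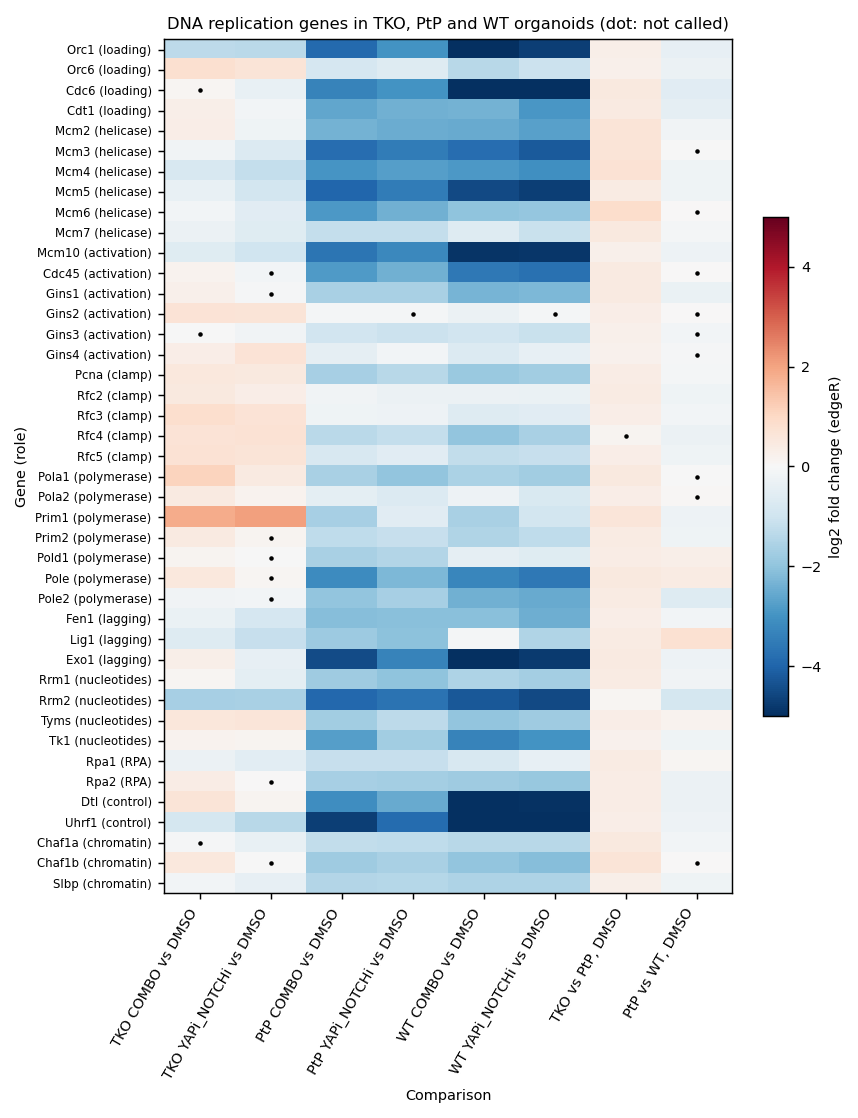
Log2 fold change of each member (rows, with its role) in 8 comparisons of TKO, PtP and WT organoids (columns), where blue is lower, red is higher, dots mark values not called and the colour scale ends at 5 in either direction. The PtP and WT columns of COMBO and YAPi_NOTCHi are blue or, in rows of small change such as Gins2, near white, and the TKO columns hold both colours, with Prim1 the strongest red.

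COMBO was also set against YAPi_NOTCHi within a genotype. In TKO organoids 33 members were higher and 2 lower with COMBO (37.4% and 27.6% of all genes), with a median of 0.32 against 0.065. In PtP organoids 5 were higher and 20 lower (34.4% and 25.4%), with 3 higher when COMBO library 2 or 3 was left out, and in WT organoids 11 were higher and 13 lower (34.4% and 28.3%). In TKO organoids Exo1 (0.70 ± 0.061), Pola1 (0.66 ± 0.043) and Rrm1 (0.58 ± 0.026) were higher with COMBO, and Gins4 (-0.32 ± 0.043) and Prim1 (-0.20 ± 0.033) were the 2 that were lower. Prim1 was lower with COMBO in the other genotypes too. It was at 5.98, 6.04 and 5.72 CPM in PtP organoids with COMBO, against 12.5, 11.7 and 14.6 CPM with YAPi_NOTCHi (log2 fold change -1.10 ± 0.077 SE, edgeR adjusted p = 3.60e-16). In WT organoids it was at 7.10, 7.26 and 7.31 CPM with COMBO, against 11.3, 12.03 and 11.4 CPM with YAPi_NOTCHi (log2 fold change -0.69 ± 0.077 SE, edgeR adjusted p = 1.92e-10). Neither pair of groups overlapped. Lig1 was higher with COMBO in WT organoids (log2 fold change 1.39 ± 0.044 SE, edgeR adjusted p = 5.05e-28).

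With DMSO alone, the genotypes differed by small amounts. TKO organoids were higher than PtP organoids for 41 members and lower for 0 (13.1% and 13.4% of all genes tested), with a median of 0.39 against 0.0028 over all genes, and no member reached a 2-fold change. Mcm6 differed most. It was at 220.5, 218 and 229.7 CPM in TKO organoids, against 123, 119 and 122 CPM in PtP organoids (log2 fold change 0.88 ± 0.027 SE, edgeR adjusted p = 4.41e-26). Mcm4 (0.71 ± 0.037), Mcm3 (0.65 ± 0.036), Chaf1b, a subunit of the histone chaperone CAF-1 (0.64 ± 0.054), and Mcm2 (0.64 ± 0.034) followed, and Rfc4 was the member not called (0.14 ± 0.072).

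PtP organoids were lower than WT organoids for 28 members and higher for 5 (30.8% and 30.1% of all genes), with a median of -0.19 against 0. Rrm2 was at 127, 120.2 and 119 CPM in PtP organoids, against 219, 227 and 226 CPM in WT organoids (log2 fold change -0.88 ± 0.028 SE, edgeR adjusted p = 4.99e-28). Lig1 was at 121, 125 and 136 CPM in PtP organoids, against 74.3, 79.5 and 72.2 CPM in WT organoids (log2 fold change 0.76 ± 0.037 SE, edgeR adjusted p = 2.61e-21). So Rrm2 was lower and Lig1 higher in every PtP library. Pole (0.42 ± 0.080) and Pold1 (0.30 ± 0.061) were also higher.

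Genes outside the 42 moved in part with them. Of 50 other replication genes, a list that includes Dbf4, Clspn and Dnmt1, 13 fell and 33 rose in TKO organoids with YAPi_NOTCHi (median 0.29), 43 fell and 5 rose in PtP organoids (median -0.97), and 43 fell and 5 rose in WT organoids (median -1.22). Of 30 mitosis genes, 20 fell and 5 rose in TKO organoids (median -0.29), 30 fell and 0 rose in PtP organoids (median -3.38), and 30 fell and 0 rose in WT organoids (median -6.50). With COMBO the mitosis medians were 0.29 in TKO, -4.20 in PtP and -6.39 in WT organoids. Of all genes tested with YAPi_NOTCHi, 40.6% fell and 45.7% rose in TKO, 40.6% and 44.9% in PtP and 40.2% and 45.5% in WT organoids. Over all genes tested the medians in these comparisons lay between 0.071 and 0.11. The mitosis list had a lower median than the members in PtP and WT organoids with either treatment. In TKO organoids its median was lower with YAPi_NOTCHi (-0.29 against -0.13) and higher with COMBO (0.29 against 0.22).

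Other values moved with these groups. The share of counts held by mitochondrial genes was 3.18% to 3.33% in TKO, 4.54% to 4.78% in PtP and 4.95% to 5.28% in WT organoids with COMBO. With YAPi_NOTCHi the values were 5.16% to 5.33% in TKO, 6.66% to 6.98% in PtP and 5.81% to 6.05% in WT organoids, against 1.35% to 1.41% in TKO, 1.62% to 1.65% in PtP and 0.923% to 0.927% in WT organoids with DMSO. Every treated group was above its DMSO group, and with either treatment the TKO share was below those of PtP and WT organoids. The summed level of 7 epithelial markers was 3693 to 3783 CPM in TKO, 5975 to 6188 CPM in PtP and 7003 to 7216 CPM in WT organoids with COMBO. With YAPi_NOTCHi the values were 3032 to 3066 CPM in TKO, 4525 to 4592 CPM in PtP and 4803 to 4913 CPM in WT organoids, against 9377 to 9423 CPM in TKO, 10192 to 10402 CPM in PtP and 17357 to 17612 CPM in WT organoids with DMSO. It was lower in every treated group than in its DMSO group. That of 5 neuroendocrine markers was 1164 to 1232 CPM in TKO, 445 to 448 CPM in PtP and 336 to 364 CPM in WT organoids with COMBO. With YAPi_NOTCHi the values were 651 to 668 CPM in TKO, 161 to 169 CPM in PtP and 189 to 195 CPM in WT organoids, against 35.3 to 36.6 CPM in TKO, 34.99 to 42.7 CPM in PtP and 3.87 to 5.85 CPM in WT organoids with DMSO. It was higher in every treated group, while Chga was at 0 in PtP organoids with DMSO, and Chga, Insm1 and Foxa2 in WT organoids with DMSO.

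Dcn and Pdgfra, of the fibroblast list, summed to 19.5 to 22.1 CPM in TKO, 49.5 to 53.7 CPM in PtP and 179.5 to 186 CPM in WT organoids with COMBO. With YAPi_NOTCHi the values were 39.9 to 42.3 CPM in TKO, 52.9 to 57.0 CPM in PtP and 344 to 348 CPM in WT organoids, against 178 to 188 CPM in TKO, 159.6 to 161 CPM in PtP and 5.78 to 6.23 CPM in WT organoids with DMSO. They were higher in treated than in DMSO libraries of WT organoids and lower in those of TKO and PtP organoids. Pecam1 and Vwf, of 4 endothelial markers, summed to 24.8 to 25.96 CPM in TKO, 7.65 to 8.09 CPM in PtP and 4.91 to 5.38 CPM in WT organoids with COMBO. With YAPi_NOTCHi the values were 16.6 to 17.2 CPM in TKO, 3.37 to 3.95 CPM in PtP and 2.51 to 3.54 CPM in WT organoids, against 0.144 to 0.579 CPM in TKO, 0.635 to 1.17 CPM in PtP and 0.210 to 0.425 CPM in WT organoids with DMSO. They were higher in every treated group. Cd68 was at 2.81 to 3.40 CPM in TKO, 4.33 to 6.03 CPM in PtP and 5.57 to 6.67 CPM in WT organoids with COMBO. With YAPi_NOTCHi the values were 2.82 to 3.69 CPM in TKO, 3.24 to 5.46 CPM in PtP and 5.94 to 7.87 CPM in WT organoids, against 26.2 to 28.0002 CPM in TKO, 35.9 to 40.99 CPM in PtP and 16.1 to 18.6 CPM in WT organoids with DMSO. It was lower in every treated group. The part of these values in the results for the members was not tested.

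Most members were lower in PRAD organoids with a single agent. With YAPi all 42 members fell and 0 rose (26.9% and 35% of all 18483 genes tested), with a median log2 fold change of -0.83 against 0.064 over all genes. With NOTCHi 37 fell and 2 rose (28% and 26%), with a median of -0.47 against -0.0064. With ARi 27 fell and 8 rose (27.4% and 27.1%), with a median of -0.15 against 0. The summed level of the members was 2268, 2238 and 2179.8 CPM with YAPi, 2936, 2913 and 2885 CPM with NOTCHi and 3529, 3467 and 3524 CPM with ARi, against 3766, 3721 and 3739 CPM with DMSO, and no group overlapped the DMSO libraries.

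Orc1 had the deepest fall with YAPi. It was at 4.27, 3.82 and 3.75 CPM in PRAD organoids with YAPi, against 12.2, 11.3 and 12.5 CPM with DMSO (log2 fold change -1.58 ± 0.11 SE, edgeR adjusted p = 5.60e-16). Mcm5 was at 79.3, 81.2 and 75.3 CPM with YAPi, against 174, 178 and 182 CPM with DMSO (log2 fold change -1.18 ± 0.034 SE, edgeR adjusted p = 2.24e-29). Gins2 fell least, to 44.4, 44.3 and 39.4 CPM with YAPi, against 45.6, 48.0 and 48.6 CPM with DMSO (log2 fold change -0.14 ± 0.055 SE, edgeR adjusted p = 0.0205). Orc1 and Mcm5 had no overlap between groups. The call of Gins2 was lost without DMSO library 2 (edgeR adjusted p = 0.0612), without DMSO library 3 (0.0791) or without YAPi library 3 (0.153), and under RLE scaling (0.152). It was also lost under DESeq2 (-0.092, DESeq2 adjusted p = 0.154), so the count of 42 members that fell with YAPi rests on it. Tyms, thymidylate synthase (-1.22 ± 0.044), Tk1, thymidine kinase (-1.22 ± 0.066), Rfc4 (-1.22 ± 0.061) and Rrm2 (-1.18 ± 0.033) were next to Orc1 in depth.

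Tk1 fell most with NOTCHi, to 33.5, 35.8 and 33.1 CPM, against 71.5, 76.8 and 72.8 CPM with DMSO (log2 fold change -1.11 ± 0.068 SE, edgeR adjusted p = 3.63e-18). Orc1 (-0.89 ± 0.11), Rfc4 (-0.83 ± 0.062) and Rrm2 (-0.81 ± 0.033) followed. Gins2 (0.24 ± 0.056) and Rrm1 (0.074 ± 0.026) were the 2 members that rose, and Rrm1 lost its call without DMSO library 3 (edgeR adjusted p = 0.0591). Without NOTCHi library 2, which stood apart, 37 members fell and 2 rose.

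Members went both ways with ARi. Rrm2 was at 111, 105 and 108 CPM in PRAD organoids with ARi, against 253, 245 and 252 CPM with DMSO (log2 fold change -1.21 ± 0.033 SE, edgeR adjusted p = 2.31e-30). Lig1 was at 291, 292 and 291 CPM with ARi, against 187, 184 and 184 CPM with DMSO (log2 fold change 0.65 ± 0.032 SE, edgeR adjusted p = 2.96e-21). Rrm2 was lower and Lig1 higher in every ARi library. Tk1 fell (-0.82 ± 0.065), Pole rose (0.38 ± 0.045), and Mcm2 (0.14 ± 0.035), Mcm4 (0.16 ± 0.031) and Mcm6 (0.18 ± 0.025) were among the 8 that rose.

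Pairs that contain ARi also went with falls of most members. With ARi_YAPi 37 members fell and 2 rose (30.5% and 39.7% of all genes tested, median -0.55 against 0.072), and with ARi_NOTCHi 35 fell and 2 rose (33.3% and 35.1%, median -0.54 against 0.0023). Of those with ARi_NOTCHi, 1 rose when ARi_NOTCHi library 1 or 3 or DMSO library 3 was left out. Rrm2 had the deepest falls, to 47.1, 49.5 and 49.4 CPM with ARi_YAPi and 59.3, 55.5 and 55.4 CPM with ARi_NOTCHi, against 253, 245 and 252 CPM with DMSO. Their log2 fold changes were -2.36 ± 0.036 (SE, edgeR adjusted p = 4.62e-40) and -2.14 ± 0.036 (SE, edgeR adjusted p = 5.85e-39). No library with either pair overlapped those with ARi alone, at 111, 105 and 108 CPM, and that difference was not tested. Mcm2 was not called with either pair (-0.076 ± 0.036 and -0.041 ± 0.036), nor was Mcm6 (-0.020 ± 0.025 and -0.040 ± 0.025). Mcm2 was called lower with ARi_YAPi when only the groups compared were in the fit (-0.11, edgeR adjusted p = 0.00279).

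YAPi and NOTCHi were also given together. With YAPi_NOTCHi 29 members fell and 5 rose over DMSO (35.1% and 40.2% of all genes), with a median of -0.23 against 0.055 over all genes. Pola1 was at 95.0, 96.9 and 93.1 CPM with YAPi_NOTCHi, 42.1, 41.9 and 41.7 CPM with NOTCHi and 32.8, 33.8 and 35.6 CPM with YAPi, against 50.03, 45.6 and 49.0 CPM with DMSO. It rose with the pair (log2 fold change 0.98 ± 0.041 SE, edgeR adjusted p = 3.63e-24) and fell with each agent alone (-0.20 ± 0.046 with NOTCHi and -0.51 ± 0.045 with YAPi). Mcm2 was at 258, 267 and 282 CPM with YAPi_NOTCHi, 129.6, 127 and 122 CPM with NOTCHi and 116, 111.8 and 102 CPM with YAPi, against 161, 163 and 165 CPM with DMSO (log2 fold change 0.72 ± 0.035 SE, edgeR adjusted p = 4.30e-22). Both genes were highest in the libraries with the pair.

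The interaction of YAPi with NOTCHi, the log2 difference between the joint effect and the sum of single effects, was called above 0 for 41 members and below 0 for 0 (28.2% and 30.8% of all genes), with a median of 0.93 against 0.019. It was largest for Exo1 (1.85 ± 0.085 SE, edgeR adjusted p = 2.13e-22), Pola1 (1.69 ± 0.062 SE, edgeR adjusted p = 5.70e-26) and Cdc6 (1.69 ± 0.094 SE, edgeR adjusted p = 1.02e-19). Mcm4 was the member not called (-0.0092 ± 0.044 SE, edgeR adjusted p = 0.91). Without NOTCHi library 2 the counts were 41 and 0. Under RLE scaling Mcm4 was called below 0 (-0.10, edgeR adjusted p = 0.0439) and the call of Rrm2 was lost (0.093, edgeR adjusted p = 0.0920). Rrm2 had a small interaction (0.19 ± 0.048 SE, edgeR adjusted p = 8.00e-04) and stayed low, at 73.3, 71.1 and 71.2 CPM with YAPi_NOTCHi, against 253, 245 and 252 CPM with DMSO (log2 fold change -1.80 ± 0.034 SE, edgeR adjusted p = 8.24e-37). Orc1 (-1.63 ± 0.12), Tk1 (-1.63 ± 0.069) and Pole2, a subunit of polymerase epsilon (-1.05 ± 0.090), also fell by 2-fold or more.

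**Figure D4:**
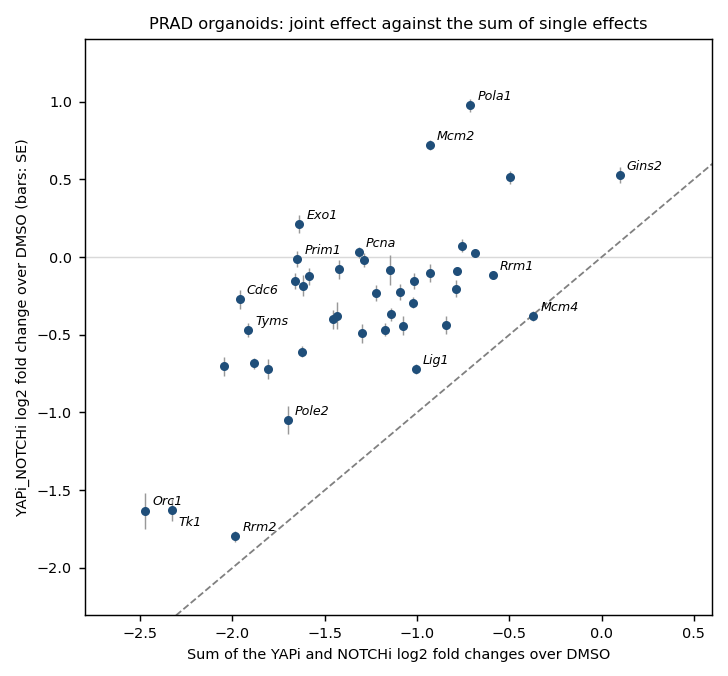
For each member in PRAD organoids, the log2 fold change with YAPi_NOTCHi over DMSO (y axis, bars are SE) against the sum of the log2 fold changes with YAPi and with NOTCHi (x axis), where the dashed line marks equality. All points except Mcm4 lie above the line, with Pola1 and Mcm2 furthest above 0 and Rrm2, Orc1 and Tk1 at the bottom left.

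ARi with YAPi also had a positive interaction, above 0 for 35 members and below 0 for 0 (19.2% and 17.4% of all genes), with a median of 0.35. Prim1 (0.76 ± 0.076 SE, edgeR adjusted p = 4.93e-11) and Rpa2, a single-strand binding subunit (0.67 ± 0.089 SE, edgeR adjusted p = 4.69e-08), had the largest. For ARi with NOTCHi it was above 0 for 8 and below 0 for 14 (18.7% and 20.6%), with a median of 0.012, so the members went both ways. Orc6 was at the upper end (0.61 ± 0.075 SE, edgeR adjusted p = 7.98e-09) and Cdc6 at the lower (-0.42 ± 0.099 SE, edgeR adjusted p = 5.28e-04).

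COMBO in PRAD organoids was sampled at 2 times. At day 42 of COMBO, 25 members rose and 12 fell over the DMSO libraries, which are of day 8 (41.2% and 43.3% of all genes, median 0.31 against -0.034). At day 8 of COMBO, 7 rose and 24 fell (41.1% and 38.7%, median -0.16 against 0.026). The 42-day libraries were higher than the 8-day COMBO libraries for 37 members and lower for 1 (34.9% and 34.8%, median 0.46 against 0.0047), with 2 lower when library 2 of day 42 was left out. No DMSO group of day 42 is used here, so time and treatment cannot be told apart against DMSO.

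Pola1 was at 195, 183 and 185 CPM at day 42 and 111, 109 and 108 CPM at day 8 of COMBO, against 50.03, 45.6 and 49.0 CPM with DMSO. Its later libraries were all higher than the earlier ones (log2 fold change 0.78 ± 0.037 SE, edgeR adjusted p = 1.44e-22). Pcna was at 423, 392 and 399 CPM at day 42 and 243, 232 and 235 CPM at day 8, against 233, 220.1 and 225 CPM with DMSO, and rose between the days (log2 fold change 0.78 ± 0.033 SE, edgeR adjusted p = 4.35e-24). Gins3, a subunit of GINS (1.01 ± 0.085), and Chaf1b (0.97 ± 0.047) were among the largest rises. Mcm4 was the member that was lower at day 42. It was at 111.9, 104 and 109 CPM at day 42 and 133, 132 and 132 CPM at day 8 (log2 fold change -0.29 ± 0.032 SE, edgeR adjusted p = 6.23e-11), against 193, 188 and 188 CPM with DMSO. Rrm2 stayed below DMSO at day 42, at 86.2, 79.0 and 78.7 CPM against 253, 245 and 252 CPM (log2 fold change -1.62 ± 0.034 SE, edgeR adjusted p = 4.60e-36), as did Orc1 (-1.28 ± 0.11) and Tk1 (-1.12 ± 0.066).

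Differences between COMBO at day 8 and YAPi_NOTCHi were small. Of the members 15 were higher and 5 lower with COMBO (20.6% and 21.9% of all genes), with a median of 0.086 against 0.0037, and the range ran from -0.31 to 0.25. Without COMBO library 2 of day 8, 9 were higher. Pold1 (0.25 ± 0.062) and Mcm2 (0.24 ± 0.034) were at the upper end, and Rrm2 (-0.31 ± 0.036) and Mcm10 (-0.29 ± 0.066) at the lower.

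The NEPC lines, on the mean of 3 lines, were higher than PRAD organoids with DMSO for 28 members and lower for 9 (42% and 43.8% of all genes), with a median of 0.31 against -0.022. The SE and p-values of the NEPC mean come from the spread among libraries of a group and leave out the spread between lines. They hold for these 3 lines only. Pola1 was at 133, 129 and 129.5 CPM in NEPC-1, 193, 196 and 205 CPM in NEPC-2 and 91.0, 92.9 and 93.7 CPM in NEPC-3, against 50.03, 45.6 and 49.0 CPM in PRAD organoids with DMSO (log2 fold change 1.47 ± 0.036 SE, edgeR adjusted p = 8.73e-34). Mcm2 was at 412, 401 and 413 CPM in NEPC-1, 424, 409.6 and 414 CPM in NEPC-2 and 433, 433 and 413 CPM in NEPC-3, against 161, 163 and 165 CPM with DMSO (log2 fold change 1.35 ± 0.030 SE, edgeR adjusted p = 4.85e-35). Orc1 was at 6.07, 5.29 and 6.06 CPM in NEPC-1, 3.40, 3.14 and 2.58 CPM in NEPC-2 and 4.51, 4.84 and 5.52 CPM in NEPC-3, against 12.2, 11.3 and 12.5 CPM with DMSO (log2 fold change -1.43 ± 0.088 SE, edgeR adjusted p = 6.44e-19). Every NEPC library was above every DMSO library for Pola1 and Mcm2, and below for Orc1. Cdc45 (1.31 ± 0.052) and Chaf1b (1.02 ± 0.042) rose by 2-fold or more, and Rrm2 (-1.01 ± 0.025) fell.

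Against PRAD organoids on COMBO for 42 days, the NEPC mean was higher for 21 members and lower for 8 (33.2% and 31.7% of all genes), with a median of 0.092 against 0.015, and no member differed by 2-fold. Cdc45 (0.67 ± 0.047 SE, edgeR adjusted p = 1.43e-16), Rrm2 (0.61 ± 0.029 SE, edgeR adjusted p = 2.67e-22) and Gins2 (0.48 ± 0.042 SE, edgeR adjusted p = 2.71e-13) were higher, and Gins3 (-0.55 ± 0.066 SE, edgeR adjusted p = 1.28e-09) and Pola1 (-0.49 ± 0.029 SE, edgeR adjusted p = 5.80e-19) lower. Both comparisons of the NEPC mean rest on the same NEPC libraries, and the p-values of both leave out the spread between lines.

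The 3 lines differed among themselves. Each line was set against the mean of the other two. NEPC-1 was higher for 19 and lower for 14 members (30.9% and 25.7% of all genes), NEPC-2 higher for 4 and lower for 32 (31.8% and 27.6%), and NEPC-3 higher for 27 and lower for 7 (27.2% and 33.2%), with medians of 0.056, -0.19 and 0.21. Dtl was at 84.8, 86.3 and 85.2 CPM in NEPC-1, 33.9, 33.3 and 36.7 CPM in NEPC-2 and 77.6, 81.5 and 78.6 CPM in NEPC-3, so NEPC-2 was low (-1.25 ± 0.046 SE, edgeR adjusted p = 9.96e-26). Cdc45 was at 44.3, 49.7 and 43.2 CPM in NEPC-1, 42.8, 45.6 and 42.5 CPM in NEPC-2 and 77.7, 77.4 and 77.7 CPM in NEPC-3, so NEPC-3 was high (0.80 ± 0.044 SE, edgeR adjusted p = 1.20e-19). Pola1 was highest in NEPC-2 (0.85 ± 0.031 SE, edgeR adjusted p = 3.30e-26) and lowest in NEPC-3 (-0.80 ± 0.033 SE, edgeR adjusted p = 4.14e-24).

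**Figure D5:**
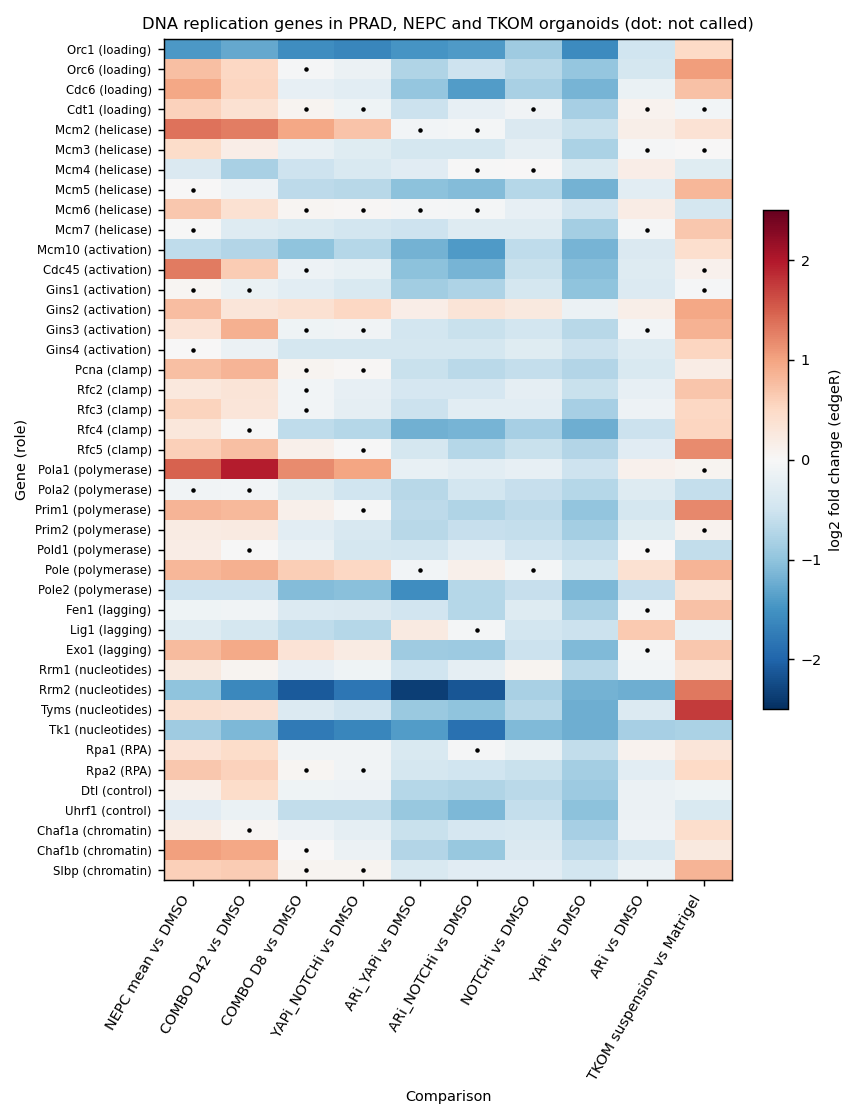
Log2 fold change of each member (rows, with its role) in 9 comparisons of NEPC lines and treated PRAD organoids with PRAD organoids on DMSO, and in TKOM suspension against Matrigel (columns), where blue is lower, red is higher and dots mark values not called. The YAPi column is blue in all 42 rows, Pola1 and Mcm2 are red with YAPi_NOTCHi, COMBO and in the NEPC mean, and Rrm2, Tk1 and Orc1 are blue in all 9 comparisons with DMSO.

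Beside the members in the PRAD and NEPC table, 43 of the 50 other replication genes fell and 2 rose with YAPi (median -0.67, with 26.9% and 35% of all genes tested). With YAPi_NOTCHi 28 fell and 16 rose (median -0.13, with 35.1% and 40.2%). At day 42 of COMBO 30 rose and 12 fell (median 0.33, with 41.2% and 43.3%). For the NEPC mean over DMSO 34 rose and 11 fell (median 0.44, with 42% and 43.8%). All 30 mitosis genes fell with YAPi (median -1.32), and 25 fell and 4 rose with YAPi_NOTCHi (median -0.41). At day 42 of COMBO 16 mitosis genes rose and 11 fell (median 0.17), and 18 rose and 7 fell in the NEPC mean (median 0.33). The interaction of YAPi with NOTCHi was above 0 for 44 and below 0 for 4 of the other replication genes (median 0.95). For mitosis genes it was above 0 for 30 and below 0 for 0 (median 1.62), with 28.2% and 30.8% of all genes. Over all genes tested the medians of these comparisons lay between -0.034 and 0.064.

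Markers and RNA composition moved in these groups too. Epithelial markers summed to 2668 to 2737 CPM in NEPC-1, 2944 to 3018 CPM in NEPC-2, 2125 to 2269 CPM in NEPC-3, 3002 to 3263 CPM at day 42 of COMBO, 6315 to 6474 CPM at day 8 of COMBO and 7199 to 7660.2 CPM with YAPi_NOTCHi, against 11661 to 12259 CPM with DMSO. Neuroendocrine markers summed to 1784 to 1834 CPM in NEPC-1, 2150.5 to 2249 CPM in NEPC-2, 1467 to 1500.0 CPM in NEPC-3, 3273 to 3411 CPM at day 42 of COMBO, 1368 to 1412 CPM at day 8 of COMBO and 897 to 945 CPM with YAPi_NOTCHi, against 56.3 to 61.6 CPM with DMSO, where Foxa2 was at 0. So the epithelial sum was lower and the neuroendocrine sum higher in each of these groups than with DMSO. Cdh5, Kdr and Vwf, of the endothelial list, summed to 287 to 293 CPM in NEPC-1, 412 to 431 CPM in NEPC-2, 270.4 to 292 CPM in NEPC-3, 108 to 119 CPM at day 42 of COMBO, 25.4 to 25.8 CPM at day 8 of COMBO and 16.04 to 20.2 CPM with YAPi_NOTCHi, against 0.267 to 0.538 CPM with DMSO, where Cdh5 and Kdr were at 0. Dcn with Pdgfra summed to 0.708 to 0.977 CPM in NEPC-1, 0.421 to 0.698 CPM in NEPC-2, 0.242 to 0.411 CPM in NEPC-3, 1.18 to 1.62 CPM at day 42 of COMBO, 166 to 171 CPM at day 8 of COMBO and 146 to 154 CPM with YAPi_NOTCHi, against 82.1 to 86.7 CPM with DMSO. Cd68 with Csf1r summed to 0.303 to 0.814 CPM in NEPC-1, 0.314 to 0.480 CPM in NEPC-2, 0.347 to 0.759 CPM in NEPC-3, 0.259 to 0.570 CPM at day 42 of COMBO, 3.74 to 4.82 CPM at day 8 of COMBO and 5.71 to 10.03 CPM with YAPi_NOTCHi, against 22.3 to 23.2 CPM with DMSO. The endothelial sum was thus higher and the immune sum lower in each of these groups, and the fibroblast sum was under 2 CPM in the NEPC lines and at day 42. Mitochondrial genes held 1.48% to 1.52% of counts in NEPC-1, 1.79% to 1.91% in NEPC-2, 1.69% to 1.85% in NEPC-3, 2.47% to 2.73% at day 42 of COMBO, 4.08% to 4.22% at day 8 of COMBO and 3.3% to 3.49% with YAPi_NOTCHi, against 1.29% to 1.38% with DMSO. The share was higher in each of these groups than with DMSO.

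With the other agents the epithelial sum was 12028 to 12129 CPM with ARi_YAPi, 16379 to 16533 CPM with ARi_NOTCHi, 16383 to 16704 CPM with NOTCHi, 12981 to 14376 CPM with YAPi and 13633 to 13751 CPM with ARi. The neuroendocrine sum was 221 to 233 CPM with ARi_YAPi, 402 to 415 CPM with ARi_NOTCHi, 141 to 167 CPM with NOTCHi, 80.5 to 85.6 CPM with YAPi and 138 to 142 CPM with ARi. Dcn with Pdgfra summed to 109 to 111.96 CPM with ARi_YAPi, 1004 to 1039 CPM with ARi_NOTCHi, 349.7 to 366 CPM with NOTCHi, 89.3 to 90.2 CPM with YAPi and 299.7 to 309 CPM with ARi. Each neuroendocrine and each Dcn and Pdgfra sum here was above that with DMSO. The endothelial sum was 2.73 to 3.86 CPM with ARi_YAPi, 0.374 to 0.828 CPM with ARi_NOTCHi, 0.154 to 0.413 CPM with NOTCHi, 1.15 to 1.75 CPM with YAPi and 0.449 to 0.673 CPM with ARi. Cd68 with Csf1r summed to 12.3 to 12.4 CPM with ARi_YAPi, 8.15 to 8.64 CPM with ARi_NOTCHi, 17.96 to 20.1 CPM with NOTCHi, 28.97 to 30.5 CPM with YAPi and 9.03 to 9.51 CPM with ARi. Mitochondrial genes held 3.12% to 3.19% of counts with ARi_YAPi, 3.62% to 3.81% with ARi_NOTCHi, 2.41% to 2.47% with NOTCHi, 1.93% to 2.21% with YAPi and 2.22% to 2.23% with ARi, all above the share with DMSO. At 0 were Chga, Insm1, Foxa2 and Pdgfra with NOTCHi, Cdh5 with ARi_NOTCHi, NOTCHi and YAPi, Kdr in these and with ARi_YAPi, YAPi_NOTCHi and COMBO at day 8, and Csf1r with ARi, YAPi and DMSO, at day 42 of COMBO and in NEPC-3. The part of these values in the results was not tested.

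TKOM organoids in suspension had more RNA of most members than TKOM organoids in Matrigel. Of the 42 genes, 28 were higher and 8 lower (38.3% and 38.9% of all 15733 genes tested), with a median of 0.43 against -0.0044 over all genes. The summed level was 4811, 4762 and 4813 CPM in suspension, against 3848, 3817 and 3689 CPM in Matrigel, with no overlap. Since the day of the Matrigel libraries is not given, time and matrix cannot be told apart.

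Nucleotide supply genes were at both ends. Tyms was at 99.1, 103 and 101 CPM in suspension, against 31.2, 30.7 and 28.6 CPM in Matrigel (log2 fold change 1.74 ± 0.041 SE, edgeR adjusted p = 2.00e-16). Rrm2 was at 403, 401 and 399.7 CPM in suspension, against 161, 162 and 160.4 CPM in Matrigel (log2 fold change 1.32 ± 0.025 SE, edgeR adjusted p = 1.54e-17). Tk1 was at 34.4, 37.2 and 32.7 CPM in suspension, against 63.7, 61.4 and 56.2 CPM in Matrigel (log2 fold change -0.80 ± 0.054 SE, edgeR adjusted p = 4.46e-10). Tyms and Rrm2 were higher and Tk1 lower in every suspension library.

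Prim1 (1.21 ± 0.039), Rfc5, a clamp loader subunit (1.17 ± 0.039), and Orc6 (1.04 ± 0.036) also rose by 2-fold or more. The helicase was divided, with Mcm5 (0.82 ± 0.029) and Mcm7 (0.67 ± 0.031) higher, Mcm6 (-0.44 ± 0.028) and Mcm4 (-0.30 ± 0.031) lower, and Mcm3 not called (0.00044 ± 0.031). Pold1 (-0.61 ± 0.047) and Pola2, the second subunit of polymerase alpha (-0.59 ± 0.033), fell while Pole rose (0.84 ± 0.035). Of the 50 other replication genes 38 rose and 3 fell (median 0.46), and of the 30 mitosis genes 16 rose and 11 fell (median 0.17). Of all genes tested 38.3% rose and 38.9% fell, so the share of mitosis genes that fell lies near that of all genes.

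Epithelial markers summed to 1786 to 1805 CPM in suspension, with Trp63 at 0, against 4355 to 4586 CPM in Matrigel. Neuroendocrine markers, of which 3 of 5 were read, summed to 32.4 to 35.2 CPM in suspension, against 3.09 to 3.55 CPM in Matrigel. Pecam1 with Vwf summed to 37.1 to 39.7 CPM in suspension, against 1.09 to 1.45 CPM in Matrigel. The epithelial sum was thus lower and the other sums higher in suspension. Dcn was at 0 to 0.0271 CPM in suspension, against 10.4 to 11.8 CPM in Matrigel. Cd68 was at 2.93 to 3.89 CPM in suspension, against 89.3 to 93.6 CPM in Matrigel. Mitochondrial genes held 1.22% to 1.24% of counts in suspension, against 1.75% to 1.85% in Matrigel, so these 3 values were lower in suspension. The part of these values in the result was not tested.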

How the data were processed

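PolyA RNA of mouse prostate organoids was sequenced in 69 libraries of 23 groups. The authors deposited 3 tables of estimated counts per gene, not normalized, made on genome build mm10 per the submitters' processing notes, with aligner and counting program not given in the sources used here. Columns were matched to samples by the library code in the labels, and 0 columns had no match. Lines without a gene name (at most 0.0114% of a library) were left out, lines that share a name were summed, and values were rounded to whole counts. Each table was fitted over all its groups with edgeR 4.0.16 (R 4.3.3), a quasi-likelihood model of group means after filterByExpr (minimum count 10) and TMM scaling, in 34 comparisons. A gene was called at a 2-sided Benjamini-Hochberg adjusted p under 0.05 over all genes tested.

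Levels are CPM on TMM-scaled library sizes, and differences between effects are contrasts of the same fit. Alternatives were RLE scaling, no filter, DESeq2 1.42.0, a replicate block, a fit on the groups compared alone, and each library left out. The members, the 50 other replication genes, the 30 mitosis genes, the markers and the roles were chosen with earlier results of these data known. Of the neuroendocrine markers, 1 is not reported here and is in no sum. Genes named in a comparison are representatives of each role, the 4 called members with the largest rise and the 4 with the largest fall, and called members that move against most. No library was left out. Between 40.8% and 46.3% of values in a table are not whole within 0.01. No pair of replicates was identical or agreed within sampling noise (lowest chi-square per gene 1.60). The spread between libraries of a group beyond counting noise was small. As a common coefficient of variation from edgeR it was 3.63% in the TKOM table, 3.85% in the PRAD and NEPC table and 2.37% in the WT, PtP and TKO table. These values do not tell whether the libraries are separate cultures.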

Additional observations from a re-analysis of the deposited data

Results flagged for a closer look

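The effect of an agent differed between groups, by a test of the difference itself, for many members, and the values below are log2 differences from edgeR or counts of members out of 42. Between TKO and PtP organoids the effect of YAPi_NOTCHi was higher in TKO for 42 members, by 2.93 for Exo1, 2.80 for Mcm3, 2.60 for Prim1 and 0.59 for Mcm7, and the effect of COMBO was higher in TKO for 42 members, by 4.78 for Exo1. Of all genes tested, 24.2% were higher and 28.4% lower for YAPi_NOTCHi, and 25.7% and 31.2% for COMBO.

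Between PtP and WT organoids the effect of YAPi_NOTCHi was higher in PtP for 28 members and lower for 5, with a difference of 2.40 for Dtl, 2.03 for Cdc6, 1.71 for Orc1, -0.87 for Pold1 and -0.74 for Rpa1. The effect of COMBO was higher in PtP for 21 members and lower for 7, with a difference of 2.22 for Orc1 and -1.70 for Lig1. Of all genes tested, 27% were higher and 30.4% lower for YAPi_NOTCHi, and 29.4% and 30.4% for COMBO.

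In PRAD organoids the joint effect of YAPi and NOTCHi lay above the sum of the single effects for 41 members, with an interaction of 1.85 for Exo1, 1.69 for Cdc6, 1.69 for Pola1 and 0.19 for Rrm2. The interaction of ARi with YAPi was above 0 for 35 members, at 0.76 for Prim1 and 0.67 for Rpa2. That of ARi with NOTCHi was above 0 for 8 members and below 0 for 14, at 0.61 for Orc6 and -0.42 for Cdc6.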

How the results depend on the processing

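No named gene changed direction in an alternative run when it was called in that run or in the main fit. Changes of direction in genes called in neither were not looked for, and counts were compared by size only. Without a filter on low counts and with the replicate block, the counts of members higher, of members lower and of all genes called stayed within 1.5 times its value. Same-numbered libraries did not deviate together (correlations of -0.11 to 0.055 over genes). That cannot tell whether the numbers mark paired samples, since the spread within groups was small. The block changed the call of 0 of 163 named gene results. In its fit 42 members fell with YAPi in PRAD organoids and 41 with YAPi_NOTCHi in WT organoids. Under RLE scaling and under DESeq2 the YAPi by NOTCHi interaction was below 0 for 1 member, and under DESeq2 that of ARi with YAPi was below 0 for 1. Of all called genes, 35.7% (RLE scaling) and 36.3% (DESeq2) were above 0 for ARi with NOTCHi, against 47.6% with TMM.

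With only the groups compared in the fit, members higher were 1 for ARi_NOTCHi over DMSO, 11 for PRAD COMBO at day 8 over DMSO and 3 for COMBO over YAPi_NOTCHi in PtP organoids, and members lower were 5 for COMBO over YAPi_NOTCHi in TKO organoids. In that fit Lig1 lost its call with COMBO in WT organoids and Mcm2 was called lower with ARi_YAPi. Leaving out each library in turn gave 1 to 2 members higher for ARi_NOTCHi and 1 to 2 for NOTCHi over DMSO, 9 to 15 for COMBO at day 8 over YAPi_NOTCHi in PRAD organoids and 3 to 5 in PtP organoids, and 1 to 2 members lower at day 42 than at day 8 of COMBO. The causes were not tested. Depth limits the precision of members at low levels, such as Orc1, Cdc6 and Exo1, which lie under 1 CPM in WT organoids with COMBO.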
